A study of Canis lupus familiaris with 9 samples.

Results

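The genes described here are 300 dog genes that are neighbours in identifier order among the genes above an abundance limit. As a set, though not gene by gene, their RNA levels shifted between bladder tumours. They were found in 9 biopsies of invasive urothelial carcinoma, the cancer of the bladder lining, in dogs of a high-risk breed, the Scottish Terrier. All 9298 genes that averaged at least 10 CPM (each count divided by the sum of its library and put on a common scale) were sorted by Ensembl identifier and divided into 93 blocks of 100, the last of 98. For each gene the level in a tumour was expressed as a deviation, log2(CPM + 1) minus the gene's median over tumours 1, 3, 5, 7, 8 and 9. The block whose median deviation varied most between these 6 tumours was block 77, and the members are its 100 genes with those of blocks 76 and 78. Their identifiers run from ENSCAFG00000019154 to ENSCAFG00000019860. The members were thus selected on these deviations, so the values of the 6 tumours are a description and carry no test.

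All biopsies were taken through a cystoscope, and the labels give them 1 diagnosis, with no normal tissue, age, sex, treatment, genotype, stage or batch. They form 1 group, numbered in accession order, with 1 library each, and nothing states that each came from a different dog. A biopsy of this kind holds tumour cells with connective tissue, vessel and immune cells in unknown shares. The deposited table gives no gene symbols, and 0 of its 32183 identifiers matched the RefSeq gene table at hand. No member can therefore be named by function, and the labelled tissue could not be checked against its marker genes. In bulk tissue, fewer cells of a type and less RNA per cell cannot be told apart.

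As background, an Ensembl identifier is a stable accession number for a gene model and does not itself state a gene's position or function. Genes that lie side by side on a chromosome can change level together, through the number of copies of that chromosome segment or through a shared chromatin domain. Gains and losses of whole chromosomes and chromosome arms are common in urothelial carcinoma. Neither copy number nor chromatin was measured in these samples.

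Total counts ran from 19750014 in tumour 4 to 132750295 in tumour 5. Tumours 2, 4 and 6, the shallowest libraries, were not used to choose the members. Tumours 2 and 4 stood apart from the rest by the share of genes listed at 0. Tumours 2, 4 and 6 listed 13.0%, 4.67% and 1.0% of the members at 0, against 12.5%, 12.6% and 3.42% of the 8998 other genes of at least 10 CPM. Among the 6 tumours of the rule, at most 3.0% of the members were at 0.

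The members were higher in tumours 7 and 8 and lower in tumours 1 and 3 than the gene's own median. The median deviation of the 300 genes was 0.33 in tumour 7 (interquartile range -0.02 to 0.80), which is 1.26-fold, and 0.20 in tumour 8 (-0.01 to 0.52). It was -0.27 in tumour 1 (-0.79 to 0.04) and -0.29 in tumour 3 (-0.84 to 0.00), about 0.831-fold and 0.820-fold. Tumour 5, at 0.03, lay near the middle, and tumour 9, at -0.07, lay slightly below, where the other genes had 0.03. The other 8998 genes had medians between -0.03 and 0.04 in these 6 tumours. The spread between single members was wide: in tumour 7 the lowest deviated by -1.69 and the highest by 2.74, and the interquartile ranges of tumours 3 and 7 overlapped slightly near 0.

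**Figure D1:**
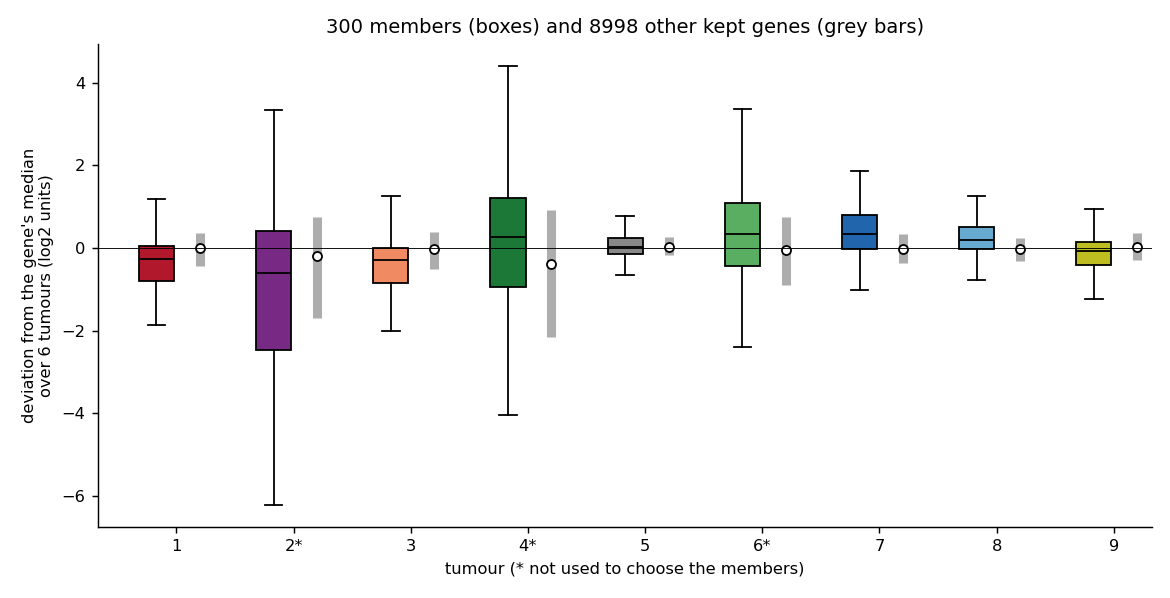
Deviation of each gene from its own median over 6 tumours (log2(CPM + 1) units) by tumour, with boxes for the median and quartiles of the 300 members (whiskers to the last value within 1.5 interquartile ranges) and grey bars with white points for the quartiles and median of the 8998 other genes. The member medians lie above those of the other genes in tumours 4, 6, 7 and 8 and below them in tumours 1, 2 and 3.

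Counted gene by gene, 219 of the 300 members lay above their median in tumour 7 and 220 in tumour 8. Below it lay 207 in tumour 1 and 223 in tumour 3. Of the other 8998 genes, 47.4% and 46.8% lay above in tumours 7 and 8, and 50.6% and 52.0% below in tumours 1 and 3. More than 1.5-fold above their median in tumour 7 were 103 members (34.3%), where 16.5% of all 9298 genes were, and 15 members (5.0%) were as far below, where 15.5% of all genes were. In tumour 8, 64 members (21.3%) were more than 1.5-fold above, against 10.5% of all genes, and 14 (4.67%) as far below, against 13.6%. More than 1.5-fold below their median were 103 members (34.3%) in tumour 1, against 20.9% of all genes, and 106 members (35.3%) in tumour 3, against 22.8%. As far above it were 20 members (6.67%) in each of tumours 1 and 3, against 16.7% of all genes in each. Tumour 5 had 18 members (6.0%) above and 14 (4.67%) below, against 9.52% and 6.83% of all genes, and tumour 9 had 19 (6.33%) above and 54 (18.0%) below, against 14.9% of all genes for each. These shares come from the measure that chose the blocks. The joint pattern, above the median in tumours 7 and 8 and below it in tumours 1 and 3, was held by 124 members (41.3%) and by 16.4% of all genes. The opposite pattern was held by 13 members (4.33%) and by 16.1% of all genes. Tumour 7 had the highest level of the 6 for 123 members (41.0%, against 18.4% of the other genes). Tumour 3 was lowest for 100 members (33.3%, against 23.1% of the other genes) and tumour 1 for 91 (30.3%, against 22.1%).

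Members were not unusual in how much a single gene varied. Per gene, log2(CPM + 1) had a median SD across the 6 tumours of 0.61 among members and 0.58 among the other genes, so what set the blocks apart was the shared direction. Nor were the members unusually abundant, with a median of 42.2 CPM against 46.5 CPM. The size of the shift by abundance differed between tumours. In tumour 7 the median deviation was 0.52 for the 113 members of 10 to 30 CPM, 0.35 for the 122 of 30 to 100 CPM and 0.11 for the 65 of 100 CPM or more. In tumour 1 these medians were -0.32, -0.26 and -0.21, and in tumour 3 they were -0.34, -0.22 and -0.24. Tumour 8 had 0.15, 0.27 and 0.18, lowest among the least abundant members. Together the members, 3.23% of the genes, took 2.70% ± 0.55 of all counts (SD, n = 9), from 2.04% in tumour 1 and 2.08% in tumour 2 to 3.27% in tumour 8 and 3.40% in tumour 6.

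The 3 blocks differed in size of shift more than in direction. In tumours 7, 8, 5, 9, 1 and 3, block 77 had medians of 0.45, 0.31, 0.02, -0.13, -0.36 and -0.40, and an SD over the 6 tumours of 0.35. Block 76 had an SD of 0.22, with 0.24 in tumour 7 and -0.32 in tumour 1. Block 78 had an SD of 0.20, with 0.27 in tumour 7 and -0.24 in tumour 3. These were the 3 highest SDs of the 93 blocks. Just outside, block 75 had 0.07 and block 79 had 0.10, and the highest elsewhere was 0.16, in block 93. The median over the 90 other blocks was 0.08. At the limit of abundance, the least abundant member had a mean of 10.002 CPM and the most abundant gene left out of the same identifier range had 9.93 CPM.

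**Figure D2:**
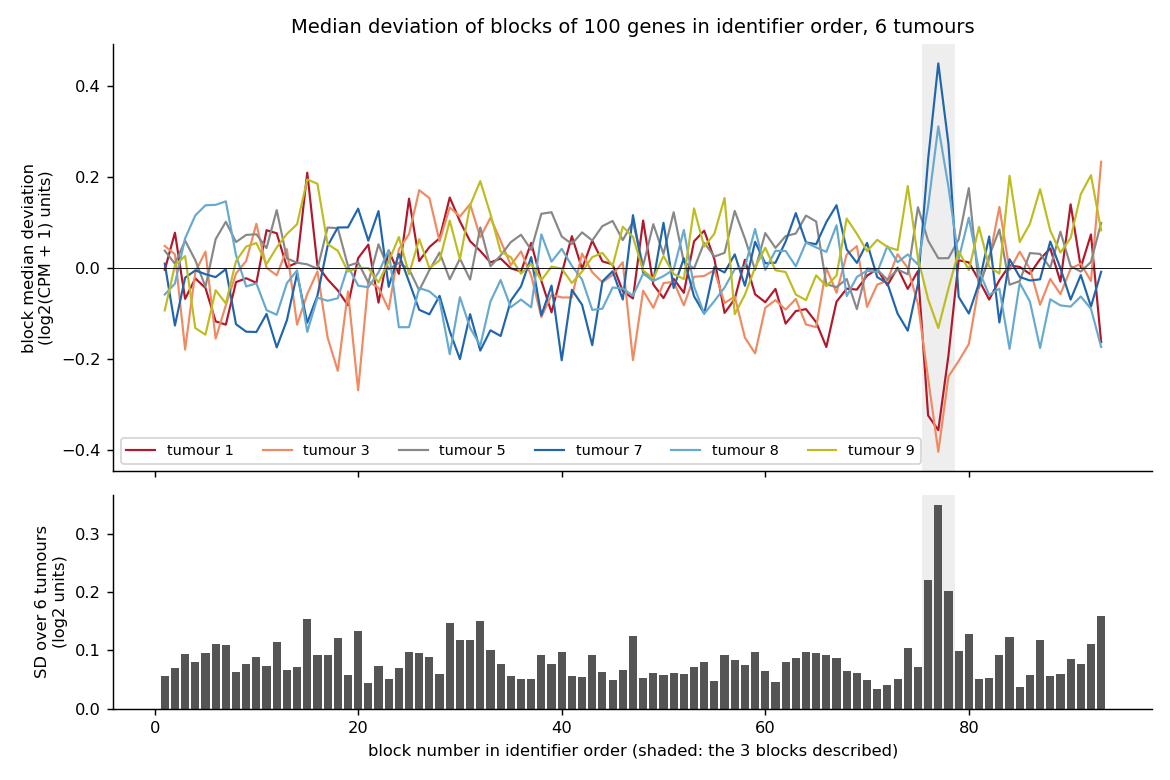
Median deviation (log2(CPM + 1) units) of each block of 100 genes in identifier order, 1 line per tumour (upper panel), and SD of the 6 block medians (lower panel). The 3 shaded blocks, 76 to 78, hold the highest SDs (0.22, 0.35 and 0.20), with tumours 7 and 8 above 0 and tumours 1 and 3 below.

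In steps of 20 genes along the identifiers, the shift ran through most of the 3 blocks. Tumour 3 was below 0 in 15 of the 15 steps, tumour 1 in 14, and tumours 7 and 8 were above 0 in 14 each. The largest step medians of tumours 7, 1 and 3 were 0.62, -0.75 and -0.67. In the 20 steps on both sides of the members, tumour 7 was above 0 in 4 and tumour 8 in 14, while tumour 1 was below 0 in 10 and tumour 3 in 15. For tumours 8 and 3 most steps thus had the same sign outside the members as among them.

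The order of the 6 tumours by member median (7, 8, 5, 9, 1, 3) was also their order by how many genes had any count: 17834, 16852, 15736, 13826, 13770 and 13195. The 3 other tumours did not follow it: tumour 6 had 13232 genes and a member median of 0.35, tumour 4 had 11573 and 0.26, and tumour 2 had 10678 and -0.61. The part of library quality in the shift was not tested. By total counts the order was another, with tumour 5 deepest and tumour 9 shallowest of the 6.

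Tumours 2, 4 and 6, which had no part in the choice of the block, gave a further reading of the same genes. Block 77 had a median of 0.67 in tumour 4 and 0.55 in tumour 6, in each the second highest of the 93 blocks, after block 93 (1.33 and 1.01). In tumour 2 its median was -0.79, the second lowest after block 47 (-0.93). Over all blocks, tumours 4, 6 and 2 had SDs of the block medians of 0.36, 0.20 and 0.24. The 300 members had medians of 0.26, 0.35 and -0.61 in tumours 4, 6 and 2, where the other genes had -0.38, -0.04 and -0.19. Of the members, 129 (43.0%) in tumour 4 and 127 (42.3%) in tumour 6 were more than 1.5-fold above the median of the 6 tumours, against 31.6% and 30.2% of all genes, and 90 (30%) and 66 (22.0%) were as far below it, against 45.5% and 32.4%. In tumour 2, 152 members (50.7%) were more than 1.5-fold below it, against 41.2%, and 61 (20.3%) above it, against 28.7%. Without the members at 0, the medians were 0.35, 0.36 and -0.39. Over the 300 members, tumours 4 and 6 lay on the side of tumours 7 and 8, and tumour 2 on that of tumours 1 and 3, although block 76 was at -0.07 in tumour 4. With TMM factors in place of column sums, the member median in tumour 4 was 0.03 where that of all genes was -0.59. At a limit of 1 CPM, the genes of the members' identifier range had medians of 0.05, 0.19 and -0.96 in tumours 4, 6 and 2. That set includes rarer genes that are not members. At a limit of 30 CPM tumour 2 had -0.30. With no limit, tumours 4 and 6 were both at 0.00. These columns did enter the abundance limit: 26 of the 300 members, and 739 of all 9298 genes, had a mean under 10 CPM in the 6 tumours. Such genes passed through tumours 2, 4 or 6, and the 1.5-fold counts above include them, among the members and among all genes.

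Genes too rare for the rule, of 1 to 10 CPM, were a second reading. The identifier range of the members holds 604 identifiers. Besides the 300 members, 138 had 1 to 10 CPM and 166 had less, of which 52 had no count in any tumour. Over the 138 genes the median deviations in tumours 7, 8, 5, 9, 1 and 3 were 0.32, 0.13, 0.07, -0.16, -0.18 and -0.21. The 4128 genes of like abundance elsewhere had 0.07, 0.01, 0.03, 0.00, -0.01 and -0.04. More than 1.5-fold above their median in tumour 7 were 53 of the 138 (38.4%), against 21.8% of all genes of this abundance, and 5 were as far below, against 7.13%. In tumour 1, 46 (33.3%) were more than 1.5-fold below, against 25.7%, and 21 (15.2%) above, against 20.4%. In tumour 3, 50 (36.2%) were below, against 28.5%, and 29 (21.0%) above, against 21.2%. Tumour 9 had 42 (30.4%) below, against 22.8%, and 12 (8.70%) above, against 21.0%. Tumour 8 had 25 (18.1%) above, against 13.0%, and 11 (7.97%) below, against 8.42%, and tumour 5 had 24 (17.4%) above, against 17.5%, and 12 (8.70%) below, against 7.62%. The signs of the medians matched those of the members in the 6 tumours. They rested on single libraries: the medians of tumours 1 and 9 were 0.00 without tumour 5, 7 or 8, that of tumour 8 without tumour 1, 3 or 9, and that of tumour 5 without tumour 1, 3, 8 or 9. Tumour 3 was at -0.05 without tumour 7, and tumour 7 at 0.13 without tumour 1. The signs did not match in each of the other tumours: tumours 2, 4 and 6 were at -1.32, -0.29 and 0.00, where the rarer genes elsewhere were at -0.73, -0.16 and -0.01. Many of these genes were at 0, over the 6 tumours from 4.35% in tumour 7 to 35.5% in tumour 3. A choice made after the values were seen was the 65 with a count in each of the 6 tumours. In them tumours 7, 8, 5, 9, 1 and 3 had medians of 0.43, 0.06, 0.10, -0.36, -0.14 and -0.41. The order of the tumours by member median was not kept. The 1903 such genes elsewhere had 0.04, -0.01, 0.02, 0.00, -0.03 and -0.05. The rare genes did not single out block 77. By the SD of their medians, its range was 12th of the 92 ranges with at least 20 such genes (0.17), that of block 76 was 2nd (0.35) and that of block 78 was 18th (0.15).

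The rows of the deposited table are not in identifier order, and no source used here gives what their order follows. The members lay in 5 stretches of rows, where a gap of more than 100 rows between members starts another stretch. Stretches were defined after the values were seen. Stretch 1 (rows 6084 to 6285) held 58 members, stretch 2 (rows 7327 to 7610) 87, stretch 3 (rows 11334 to 11533) 69, stretch 4 (rows 21123 to 21262) 54 and stretch 5 (rows 32087 to 32182) 32. Neighbouring identifiers were seldom in the same stretch. Read by identifier, the 300 members changed stretch so often that they formed 240 runs, 198 of them of a single gene, and the longest run had 6.

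The 5 stretches did not carry the same shift. In stretch 4 the median deviations in tumours 7, 8, 5, 9, 3 and 1 were 0.59, 0.42, 0.01, -0.15, -0.50 and -0.70. In stretch 2 it was 0.55 in tumour 7 and -0.58 in tumour 3, with smaller values of 0.12 in tumour 8 and -0.20 in tumour 1. Tumour 8 stood highest in stretch 5, at 0.75, with 0.30 in tumour 7, -0.46 in tumour 1 and -0.01 in tumour 3. Stretches 1 and 3 were nearly flat in tumour 7, at 0.06 in each, although tumour 1 was at -0.32 in stretch 3. Members more than 1.5-fold above their median in tumour 7 numbered 41 of 87 in stretch 2 and 27 of 54 in stretch 4. They numbered 16 of 58 in stretch 1, 11 of 69 in stretch 3 and 8 of 32 in stretch 5. Of all genes, 16.5% were as far above. Stretch 3 was close to that share, and the other stretches were above it. As far below in tumour 7 were 5, 0, 6, 1 and 3 members in stretches 1, 2, 3, 4 and 5, against 15.5% of all genes. The joint pattern was held by 34 of 54 members in stretch 4 and 39 of 87 in stretch 2. It was held by 17 of 58, 23 of 69 and 11 of 32 in stretches 1, 3 and 5, and by 16.4% of all genes. The difference between stretches was not tested. In tumours 4 and 6 the members were also highest in stretch 4, at 0.77 and 0.88. In stretches 1, 2, 3 and 5 tumour 4 was at -0.13, 0.30, 0.17 and -0.21, and tumour 6 at 0.13, 0.12, 0.27 and -0.05. Tumour 2 was below 0 in each of the 5 stretches (from -0.72 to -0.48). This was not particular to the members: in tumour 2, 18 of the 20 identifier steps beside them were also below 0. The other 8998 genes had -0.38, -0.04 and -0.19 in tumours 4, 6 and 2.

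Stretches 2 and 4 together held 141 of the 300 members and much of the shift. Without them tumours 7, 8, 1 and 3 had medians of 0.10, 0.16, -0.21 and -0.13, and tumours 4 and 6 had 0.02 and 0.15. The SD of block 77 was then 0.26, over its remaining 54 genes. Block 77 was chosen for its high SD, and the other blocks kept all their genes. The value therefore cannot be ranked against theirs. Block 77 drew 25 of its genes from stretch 4 and 13 from stretch 1, whereas block 78 drew 40 from stretch 2 and 14 from stretch 4.

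Genes that lay between members in these rows but were not members were measured too. In stretch 4, 7 genes of at least 10 CPM and 25 of 1 to 10 CPM lay between the members. Their medians in tumours 7, 8, 1 and 3 were 0.86, 0.20, -0.17 and -0.53. More than 1.5-fold above their median in tumour 7 were 19 of the 32 (59.4%). Of all genes, 16.5% of those of at least 10 CPM and 21.8% of those of 1 to 10 CPM were. None of the 32 were as far below, where 15.5% and 7.13% of all genes of these classes were. In stretch 2 the 68 such genes had 0.40, 0.04, 0.00 and -0.34 in the same order. The 2 abundance classes differed there. The 22 genes of at least 10 CPM had 0.14, -0.11, 0.03 and -0.18, and the 46 of 1 to 10 CPM had 0.57, 0.17, -0.04 and -0.48. The 23 in stretch 5 had 0.29, 0.31, -0.52 and -0.12. Tumour 7 was at 0.16 over the 50 in stretch 1 and at 0.14 over the 47 in stretch 3. Of these 220 genes, 90 had identifiers outside the range of the members. The rest are among the 138 rarer genes described above, so for them this is not a separate reading.

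**Figure D3:**
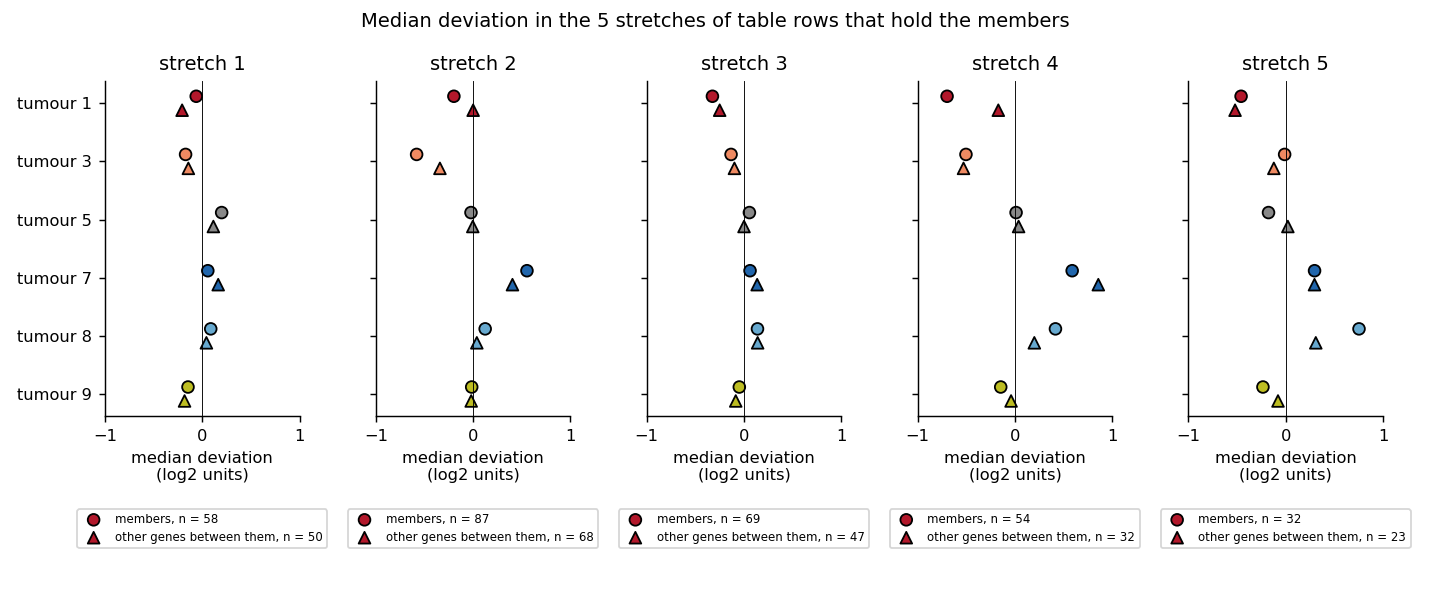
Median deviation (log2(CPM + 1) units) by tumour in each of the 5 stretches of table rows, with circles for the members and triangles for the genes of at least 1 CPM that lie between them and are not members, with the number of each under the panel. In tumour 7 both symbols lie at 0.40 or more in stretches 2 and 4 and at 0.16 or less in stretches 1 and 3. Of the genes behind the triangle of stretch 2, the 22 of at least 10 CPM had 0.14 in tumour 7.

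Where the shift began and ended along the rows also differed. At stretch 4 it reached back before the members: the 50 genes of at least 10 CPM just before them stood at 0.48, -0.49 and -0.19 in tumours 7, 1 and 3, and tumour 7 was above 0 in each of the 10 steps of 20 genes before the stretch. It stopped at its end. The last step of 20 genes within the stretch had medians of 0.87 in tumour 7 and -1.29 in tumour 3, and the next, with 1 member among its 20 genes, had -0.28 and 0.10. The 50 genes after it had -0.35 in tumour 7 and 0.14 in tumour 1. At stretch 2 the shift neither filled the members' rows nor was limited to them. Its steps ran up to 0.73 in tumour 7, but its last 2 steps had 0.16 and -0.07. The 50 genes before it had -0.08 in tumour 7 and the 50 after -0.20. Farther back, the steps that began 140, 120 and 100 genes before it had 0.50, 0.47 and 0.63 in tumour 7, and tumours 1 and 3 were below 0 in each. Before stretch 5, tumour 7 was at -0.44 and tumour 3 at 0.45 over 50 genes, on the other side of 0 from the pattern of the members.

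**Figure D4:**
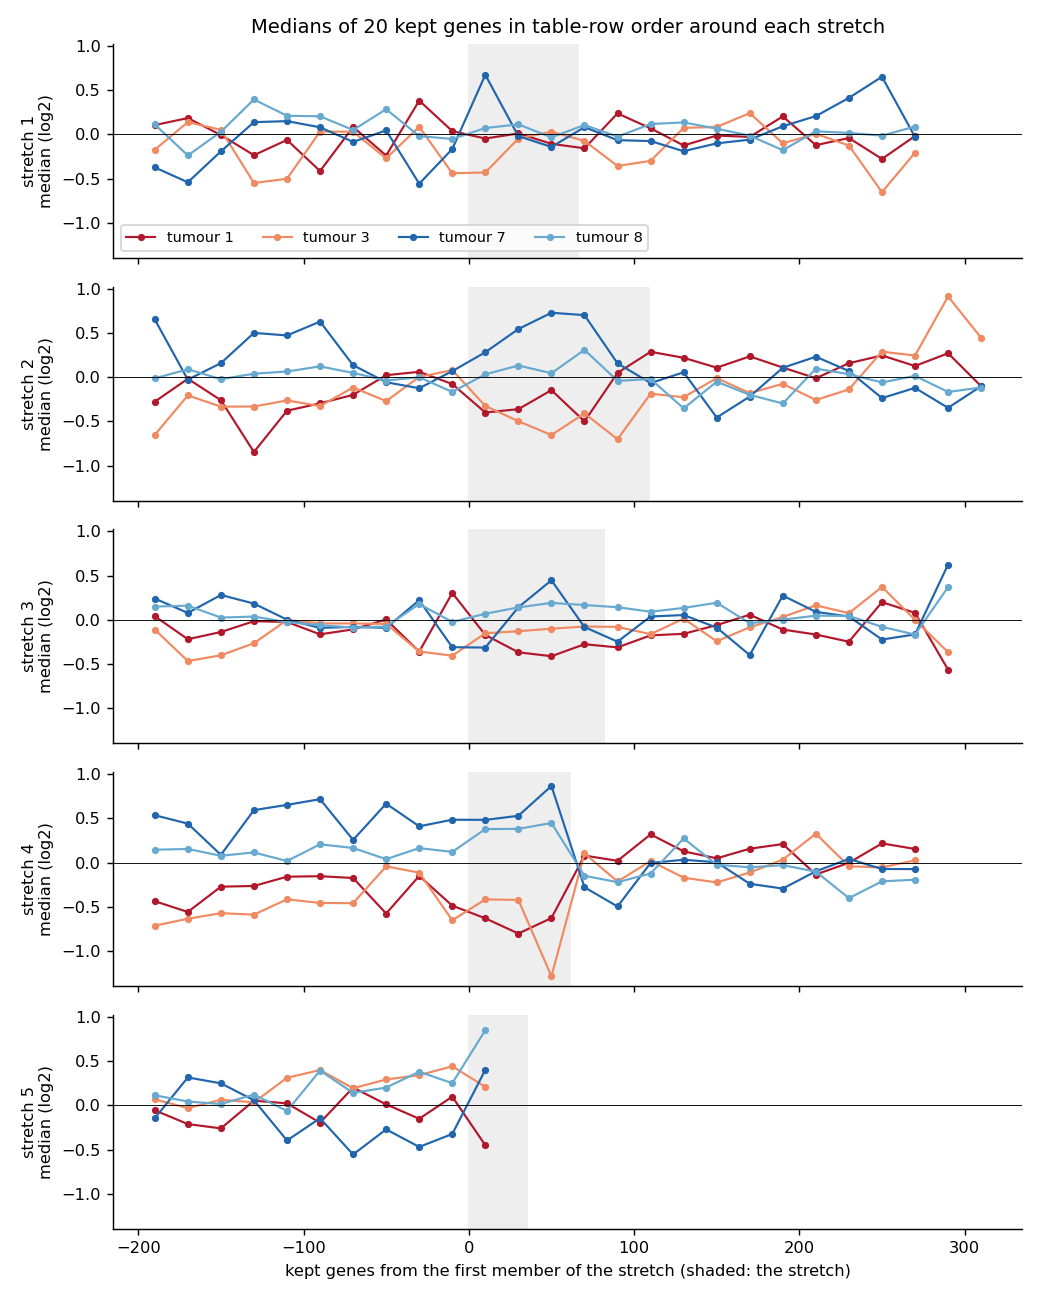
Median deviation (log2(CPM + 1) units) in steps of 20 genes of at least 10 CPM in the order of table rows, counted from the first member of each stretch (shaded), for tumours 1, 3, 7 and 8; the last genes of stretch 5, too few for a step, are not drawn. At stretch 4 tumour 7 stays above 0 for 200 genes before the members and drops from 0.87 to -0.28 at their end.

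When all 9298 genes were taken in blocks of 100 by row, neighbours shared shifts more than by identifier: the median SD over the 6 tumours was 0.13, against 0.08, and the highest 0.55, against 0.35. The members fell in 7 of these 93 row blocks. The one with the 54 members of stretch 4 (rows 21046 to 21282) had an SD of 0.43, the second highest. The other 6 had 0.11 to 0.26. Row blocks without any member came as close to the pattern of block 77. The nearest, by root mean square difference over the 6 medians (0.10), was at rows 1282 to 1573, where tumours 7, 8, 1 and 3 had 0.62, 0.25, -0.31 and -0.46. Rows 20551 to 20820, before stretch 4, had 0.39, 0.13, -0.34 and -0.53 (difference 0.11). The same order of tumours 7, 8, 1 and 3 was thus also found in rows that hold no member.

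The 2 most abundant members of block 77 that shared its direction in tumour 7 were ENSCAFG00000019472, in stretch 2, and ENSCAFG00000019598, in stretch 5. ENSCAFG00000019472 had 1718 CPM in tumour 7 (95% exact Poisson interval 1710 to 1726, for counting error only) and 1692 CPM in tumour 8. Tumours 5, 3, 9, 6, 2, 1 and 4 had 859.9, 835.9, 832.9, 730.5, 613.7, 589.9 and 237.4 CPM. Tumour 7 was 2.02-fold the gene's median level on the log2(CPM + 1) scale, tumours 7 and 8 lay apart from the other 7, and tumour 4 was lowest, against the direction of its block. The mean over the 6 tumours was 1088 ± 488 CPM (SD, n = 6).

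ENSCAFG00000019598 had 926.4 CPM in tumour 7 and 891.7 in tumour 8, and then 753.5, 676.5, 544.3, 502.4, 450.4, 316.3 and 148.5 CPM in tumours 5, 6, 9, 4, 3, 2 and 1. Its mean over the 6 tumours was 619 ± 297 CPM (SD, n = 6). The values formed a gradual order with no gap at the top, and tumour 1 was 0.233-fold the median.

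The 2 members of block 77 that went farthest the other way in tumour 7 were both in stretch 1. ENSCAFG00000019422 had 1.89 CPM in tumour 7 (200 counts), and 2.63, 7.58, 9.10, 10.5 and 17.3 CPM in tumours 3, 5, 9, 1 and 8. In the other libraries it had 42.8 CPM in tumour 4, 9.18 in tumour 6 and 1 count in tumour 2, so it passed the limit of 10 CPM through tumour 4. ENSCAFG00000019498 had 11.4 CPM in tumour 7, below every other tumour, and 18.3, 22.6, 22.9, 24.9, 29.9 and 32.4 CPM in tumours 9, 8, 3, 6, 5 and 1. It was higher in tumours 2 (49.4 CPM) and 4 (82.9 CPM). Its deviation in tumour 7 was -0.94, that of ENSCAFG00000019422 was -1.69.

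**Figure D5:**
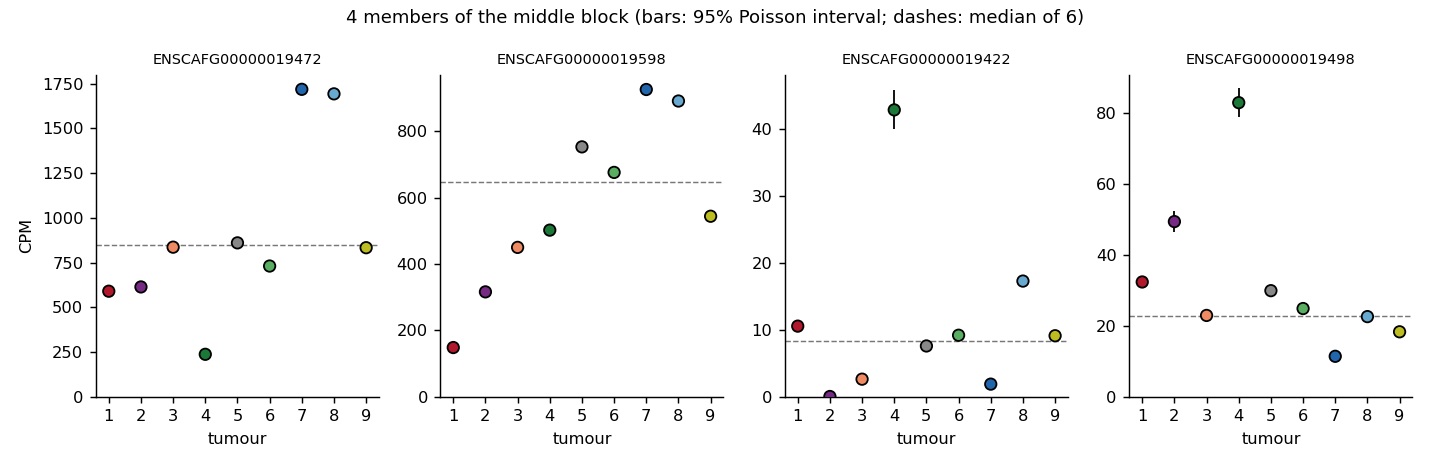
CPM of 4 members of block 77 in each of 9 tumours, on linear axes from 0, with bars for 95% exact Poisson intervals (mostly smaller than the points) and dashed lines for the median over tumours 1, 3, 5, 7, 8 and 9. The 2 genes on the left are highest in tumours 7 and 8, and the 2 on the right are highest in tumour 4.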

How the data were processed

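Bulk RNA sequencing libraries of 9 canine bladder tumours were analysed. The deposited table holds estimated counts per gene, 30.8% of them not whole, and its column sums differ, so no common scaling is visible. The genome build was CanFam3.1, per the submitters' processing notes. For aligner, quantification tool, annotation release and strand use, the authors' choices were not given in the sources used here, so overlapping genes and near-identical copies may share reads. Estimated counts were rounded to whole numbers and divided by column sums (CPM). A pseudocount of 1 was used on the log2 scale, which understates the change of low genes. With 1 group and members chosen on their deviations, no test of a difference was made, and values are set beside those of all genes. The 1.5-fold limit is on the log2(CPM + 1) scale. The members and lists were chosen with earlier results of these data known. Genes named are, in block 77 and tumour 7, the 2 of highest mean CPM with the direction and at least the size of the block median, and the 2 of largest opposite deviation with at least 10 counts in each of the 6 tumours. Alternatives used TMM factors (edgeR 4.0.16) and size factors (DESeq2 1.42.0), other filters, pseudocounts, centring and block sizes, with a short last block not eligible. Python 3.11.15, pandas 2.3.3 and R 4.3.3 were used. Marker genes of cell types could not be looked up without symbols. Depth is known as total counts only, and Poisson intervals cover counting error only.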

Additional observations from a re-analysis of the deposited data

Results flagged for a closer look

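In 1 of 15 measures a tumour lay apart from the other 8 by Dixon's ratio. Its limit is one that chance exceeds for about 1 in 20 measures when all tumours are measured alike. That rate does not hold here, so the result is a description only. Most of the measures are deviations from the median over the tumours of the rule. This draws those tumours towards the median but not tumour 2, which is outside the rule. Many of the measures also share genes. The genes of 1 to 10 CPM in the members' identifier range had a median deviation of -1.3196 in tumour 2, where the next lowest, tumour 4, had -0.2928, a gap of 0.628 of the whole range against a limit of 0.493. Of these genes 71.7% were listed at 0 in tumour 2, and 62.4% of the genes of like abundance elsewhere were, with a median of -0.73. The part of the zeros in this value was not tested.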

How the results depend on the processing

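Block 77's range gave the same 300 members again in each fit without 1 tumour and with other pseudocounts, other centring and unrounded counts, and 241 to 288 of them with TMM factors, DESeq2 size factors, a limit of 5 CPM, the limit taken over the 6 tumours or blocks starting at gene 51. At 1 CPM 207 were shared, at 30 CPM 187 and with no filter 162. Blocks of 50 shared 150 of their 150 genes and blocks of 200 held all 300 among 600. Taken by row, the highest block and its neighbours shared 0. The median in tumour 7 ran from 0.10 to 0.46 over all settings, with 0.10 without stretches 2 and 4, and from 0.24 to 0.42 in the fits without 1 tumour. In these, tumour 8 ran from 0.06 (without tumour 3) to 0.34 (without tumour 8), tumour 1 from -0.39 (without tumour 1) to -0.15 (without tumour 8) and tumour 3 from -0.42 (without tumour 3) to -0.18 (without tumours 7 or 8). A tumour left out was still measured against the median of the other 5. The SD of block 77 was 0.28 to 0.35 in those fits and 0.20 with no filter. In tumour 7, 44 members were above 2-fold, and 88 to 130 were above 1.5-fold in those fits. Genes of the members' identifier range above 1.5-fold numbered 156 at 1 CPM, 50 at 30 CPM and 165 with no filter. These 3 settings change which genes are counted. Members below numbered 8 with a pseudocount of 5, 35 with a smaller fold, 3 at 2-fold and 10 to 21 in those fits. The share of all genes was not computed at these settings, so the counts are not set against it. The median of the rarer genes in tumour 7 was 0.13 to 0.46 in those fits, with 0.13 without tumour 1, 0.54 with the limits over the 6 tumours and 0.15 with a pseudocount of 5; the cause was not tested. In tumour 4 it turned from -0.29 to 0.0652 when each tumour's median was set to 0. The median of stretch 5 in tumour 7 was 0.02 without tumour 1, 0.06 without tumour 5 and 0.02 without tumour 9, against 0.30. TMM factors moved the median of all genes in tumour 4 from -0.36 to -0.59 and in tumour 6 from -0.03 to -0.15. DESeq2 size factors moved that of tumour 4 to -0.18. Relative to all genes, the members stood at 0.62 in tumour 4 under each scaling, and between 0.35 and 0.39 in tumour 7. A median was labelled as kept if it moved by less than an SD across the rule's tumours other than 7. For the members that SD was 0.20, a wide limit. Counts of members were labelled as kept within a ratio of 1.5. Of the values for block 77's SD, for both medians in tumour 7 and for the fold counts, 97 were kept and 12 moved. Of the other values, 481 were kept, 49 moved and 1 changed sign. No paired analysis was possible because the samples form 1 group. Zeros limit the rarer genes: in the members' range tumours 1, 8 and 4 had 28.99%, 7.97% and 45.7% of them at 0, and the part of depth was not tested.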

Other observations

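Taken by row, the highest SD over the 6 tumours was in a row block with no member (rows 29702 to 30086, SD 0.55). Its median deviations in tumours 9, 3, 1 and 8 were 0.98, 0.35, -0.18 and -0.63. Rows 26298 to 26604 stood at -0.83 in tumour 7 alone among the 6, where the other 5 lay between -0.01 and 0.12. Of the 93 row blocks, 7 had an SD above that of block 77, and 1 of these 7 held members, those of stretch 4.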
